A study of Mus musculus with 8 samples.

Results

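The CXC chemokines are small signalling proteins that attract leukocytes, and the mouse genes taken here are Cxcl1, Cxcl2, Cxcl3, Cxcl10, Cxcl13, Cxcl14, Cxcl16 and Pf4. They were found by gene name, and all 8 are among the 11996 genes of the deposited table. RNA was sequenced from macrophages of C57BL/6 mice that were wild type or lacked Ptpn1 (Ptpn1-/-), the gene of the tyrosine phosphatase PTP1B, and the labels give no further detail of the allele. Thioglycolate, an irritant, had been used to draw the cells into the peritoneum, and they then adhered to plastic for 24 h. The 4 groups were wild type with mock treatment, wild type with IL-10 (100 ng/ml for 4 h), knockout with mock treatment and knockout with the same IL-10 treatment. Each group has 2 samples in the labels, the ages of the mice are not in the labels, and no inflammatory stimulus in culture is named.

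The table gives 1 value per gene and group, which is the authors' normalized signal and has no stated error. The difference between replicates is therefore unknown, no test was possible, and no statement on overlap of replicates can be made. Sequencing depth is unknown too. Where a pair of values is given for a genotype, mock stands first and IL-10 follows. Differences are given as log2 ratios after a pseudocount of 26.7 units (1 ppm of a column's total) was added to both values, which understates the change of low genes. A gene passed the filter when its mean over the 4 groups was at least 26.7 units, which held for 11400 genes and for 7 of the 8 chemokines. Cxcl3 did not pass. The macrophage genes Emr1 (10088.5 to 11367 units) and Csf1r (13685 to 16138 units) had a high signal in every group. Ptpn1 itself was listed at 4960.5 units in wild-type cells and 3836.5 in Ptpn1-/- cells under mock, and at 6736 and 5391.5 with IL-10. The part of Ptpn1 that was deleted is not given in the sources used here, so this is a weak check of the genotype.

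CXC chemokines are named for a pair of cysteines near the start of the mature protein that are separated by a single residue. Cxcl1, Cxcl2 and Cxcl3 act on the receptor Cxcr2 and draw neutrophils, and NF-kB is a main activator of their genes. Cxcl10 acts on Cxcr3 of activated T cells and NK cells and is a classic interferon target. Cxcl13 acts on Cxcr5 and guides B cells, Cxcl16 is made as a membrane-bound protein that acts on Cxcr6, and Pf4 (platelet factor 4) is best known from platelet granules. Cxcl14 is made by epithelial and stromal cells in many tissues. IL-10 is known for damping the chemokine genes that bacterial products switch on in macrophages.

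Of the 8 genes, 6 lie on chromosome 5 and most of these stand close together. The deposited rows, on mm9 coordinates, place Pf4 (ENSMUSG00000029373) at 91201461 to 91202407, Cxcl3 (ENSMUSG00000029379) at 91215129 to 91217112, Cxcl1 (ENSMUSG00000029380) at 91320267 to 91322141 and Cxcl2 (ENSMUSG00000058427) at 91332899 to 91334935, all on the plus strand. Cxcl10 (ENSMUSG00000034855) is farther along the same chromosome at 92777027 to 92777908 on the minus strand, and Cxcl13 (ENSMUSG00000023078) is at 96385945 to 96390086 on the plus strand. Cxcl14 (ENSMUSG00000021508) lies on chromosome 13 at 56390008 to 56397912 and Cxcl16 (ENSMUSG00000018920) on chromosome 11 at 70267485 to 70273486, both on the minus strand. The rows were not checked to span whole genes. That of Cxcl10 covers 882 bases, whereas its longest transcript in GENCODE M21 has 2230 bases. For Cxcl3 these are 1984 and 3498 bases, so the levels per kilobase of both genes depend on which length is used.

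The 250 bases before the start of each gene in the RefSeq table (build GRCm38.p6) were searched on both strands, and 7 of the 8 genes matched an entry there. The windows of Cxcl1, Cxcl2, Cxcl3 and Cxcl10 are shown because the first 3 hold an identical NF-kB type motif while their signals differ, and because Cxcl10 holds both NF-kB type and interferon type motifs. They are written 5′ to 3′ on the gene's own strand, and capitals mark matches to GGGANNNNCC (a form of the kappa B motif) or GAAANNGAAA (a form of the interferon-stimulated response element).
Cxcl1: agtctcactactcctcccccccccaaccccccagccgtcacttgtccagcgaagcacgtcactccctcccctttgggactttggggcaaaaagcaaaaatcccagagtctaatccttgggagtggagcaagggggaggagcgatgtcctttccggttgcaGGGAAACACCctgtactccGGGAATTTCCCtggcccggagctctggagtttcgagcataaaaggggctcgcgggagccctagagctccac
Cxcl2: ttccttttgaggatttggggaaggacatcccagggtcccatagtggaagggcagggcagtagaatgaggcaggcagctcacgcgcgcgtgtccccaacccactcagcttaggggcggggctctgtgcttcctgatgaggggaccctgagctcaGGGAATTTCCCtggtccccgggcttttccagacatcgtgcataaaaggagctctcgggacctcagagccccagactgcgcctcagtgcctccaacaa
Cxcl3: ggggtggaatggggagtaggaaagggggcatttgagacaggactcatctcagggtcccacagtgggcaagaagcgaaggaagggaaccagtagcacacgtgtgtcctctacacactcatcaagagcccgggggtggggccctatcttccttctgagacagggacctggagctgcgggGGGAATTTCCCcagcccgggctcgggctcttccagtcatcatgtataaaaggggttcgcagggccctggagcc
Cxcl10: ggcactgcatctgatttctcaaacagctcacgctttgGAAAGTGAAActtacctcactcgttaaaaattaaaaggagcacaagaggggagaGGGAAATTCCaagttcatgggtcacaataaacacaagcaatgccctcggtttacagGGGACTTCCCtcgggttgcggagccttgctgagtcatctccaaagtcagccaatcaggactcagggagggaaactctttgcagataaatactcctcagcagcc

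The windows are chr5:90890995-90891244 for Cxcl1, chr5:90903649-90903898 for Cxcl2, chr5:90785851-90786100 for Cxcl3 and, on the minus strand, chr5:92348890-92349139 for Cxcl10. The longest run common to the first 3 windows is GGGAATTTCCC, of 11 bases, at -71 to -61 from the start in Cxcl1, at -97 to -87 in Cxcl2 and at -73 to -63 in Cxcl3. It matches in 14 of 32851 windows of that length in the table, or 0.0426%, and was picked because these genes share it. The looser form GGGANNNNCC, which this run contains on both strands, matches in 17.6% of windows. Cxcl10 has it at -159 to -150 and at -103 to -94, and has the interferon type match GAAAGTGAAA at -213 to -204, a form found in 2.98% of windows. Of the other genes, Cxcl13 has GGGAGGGCCC at -63 to -54, and Cxcl14 has GAAACAGAAA at -172 to -163. Cxcl14 also has TTCTGAGAA at -191 to -183, a match to the STAT type form TTCNNNGAA that 7.02% of windows hold. No match to these forms was in the Pf4 window. Such matches are descriptions of letters, and binding was not measured.

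The chemokines differed widely in level. Per kilobase of the longest GENCODE M21 transcript, the wild-type mock level was 2080 units for Pf4, 1027 for Cxcl16, 821 for Cxcl13 and 280.2 for Cxcl14, but 54.2 for Cxcl1, 44.5 for Cxcl2, 18.8 for Cxcl10 and 2.72 for Cxcl3. Pf4, Cxcl16 and Cxcl13 thus led, and the ligands of Cxcr2 were among the lowest. Before division by length, Cxcl16 (2771 units) lay above Pf4 (1223) in that group and also in every other group. The order changed with the group. In the knockout with IL-10, Cxcl16 (2501 units per kilobase) stood level with Pf4 (2473), with Cxcl13 (1521) next. In the mock-treated knockout Cxcl13 (1535) was above Cxcl16 (1311). Whether neighbours in this order differ beyond their spread is not known, and neither is whether the authors had already corrected the signal for length.

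**Figure D1:**
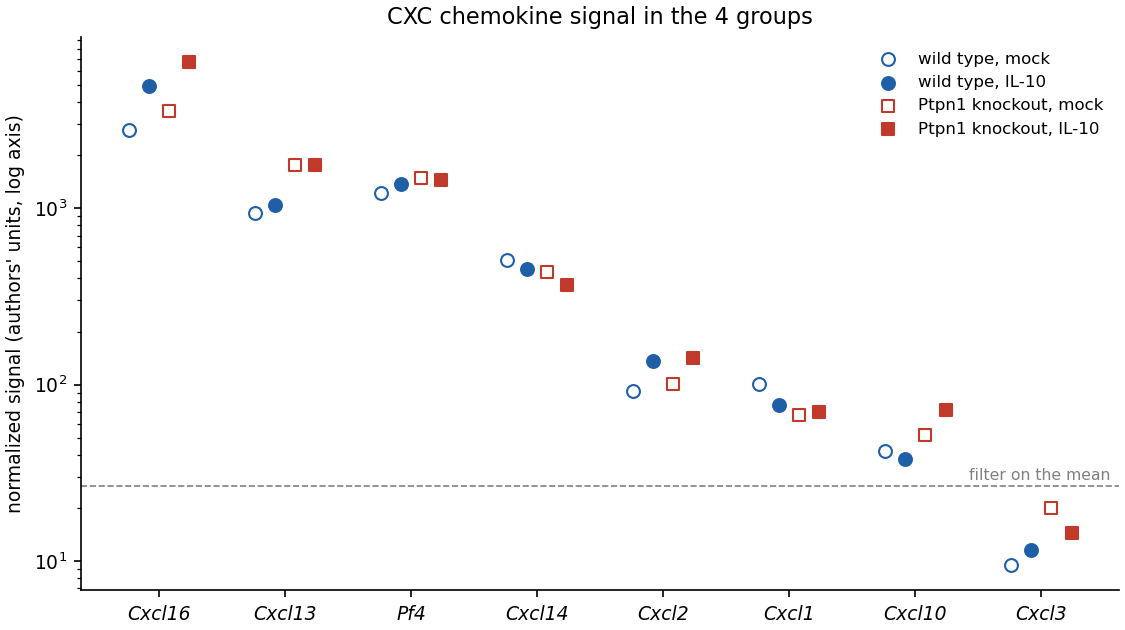
Normalized signal of the 8 CXC chemokines (log axis, authors' units) in the 4 groups, 1 point per group without error bars. The dashed line is the filter of 26.7 units on the mean, under which Cxcl3 lies. Cxcl16 is higher with IL-10 in both genotypes, and Cxcl13 is higher in both knockout groups.

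Treatment with IL-10 went with a higher signal of Cxcl16 in both genotypes, a smaller difference in the same direction in Cxcl2, and a small difference in the opposite direction in Cxcl14 in both genotypes. The other 4 chemokines past the filter had ratios of opposite sign in the genotypes. For Cxcl1, Cxcl13 and Pf4, however, the ratio in Ptpn1-/- cells was near level (0.04, -0.01 and -0.02). None of the 7 chemokines past the filter reached a 2-fold difference in either genotype. In wild-type cells, 0.465% of all genes past the filter were higher by 2-fold or more and 0.0175% lower; in Ptpn1-/- cells these shares were 0.877% and 0.0175%. At 1.5-fold, Cxcl16 was the 1 of 7 higher in each genotype and none was lower. The shares of all genes at 1.5-fold were 1.54% higher and 0.412% lower in wild-type cells, and 2.32% and 0.807% in Ptpn1-/- cells. The median of the 7 log2 ratios was 0.14 in wild-type cells and 0.04 in Ptpn1-/- cells, beside 0.00 and -0.01 for all genes. Of the 7, 4 were above 0 in each genotype, as were 49.6% of all genes in wild-type cells and 45.2% in Ptpn1-/- cells.

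Cxcl16 was listed at 2771 units with mock treatment and 4924 with IL-10 in wild-type cells, and at 3539 and 6751 in Ptpn1-/- cells. Both IL-10 groups thus lay above both mock groups. The log2 ratio was 0.82 in wild-type cells (1.78 times) and 0.93 in Ptpn1-/- cells (1.91 times). These stood at rank 81 from the highest of 11400 genes in wild-type cells and at rank 116 in Ptpn1-/- cells. Cxcl16 protein also binds oxidized lipoprotein and is cut from the membrane by the proteases Adam10 and Adam17. Adam10 had 8322.5 and 8282 units in wild-type cells and 8146.5 and 7998.5 in Ptpn1-/- cells. Adam17 had log2 ratios of -0.29 in both genotypes, from 7461.5 to 6093 units in wild-type cells and from 7078 to 5787 in Ptpn1-/- cells. The signal of the ligand was thus higher with IL-10, while that of neither protease was.

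Genes next to Cxcl16 were read on the same mm9 rows. Zmynd15, 0.212 kb away, was also higher with IL-10, at 217.5 and 325 units in wild-type cells and 253.5 and 426 in Ptpn1-/- cells. Med11, 0.743 kb away on the other side, had 712.5 and 863 units in wild-type cells and 908.5 and 983.5 in Ptpn1-/- cells. Arrb2, 13.2 kb away, stood at 2587.5 and 3150 units and at 2956 and 3729. Pelp1, at 44.0 kb, was listed at 848.5 and 870.5 units and at 791 and 814. Of these 5 genes, Cxcl16 and Zmynd15 thus had the largest IL-10 ratios and Pelp1 the smallest.

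Cxcl2 was listed at 92 units with mock treatment and 135.5 with IL-10 in wild-type cells, and at 100.5 and 142 in Ptpn1-/- cells. The log2 ratios were 0.45 and 0.41 (0.29 and 0.26 with a pseudocount of 4 ppm). The genotypes were nearly level, and both IL-10 groups lay above both mock groups. Cxcl1, whose row ends 10.8 kb before that of Cxcl2, did not share this pattern. It had 101.5 and 76.5 units in wild-type cells (log2 ratio -0.31, or -0.18 with 4 ppm) and 67.5 and 70 in Ptpn1-/- cells (0.04), so its highest value was that of mock-treated wild type. Cxcl3 had 9.5 and 11.5 units in wild-type cells and 20 and 14.5 in Ptpn1-/- cells, under the filter, so no ratio is given. Cxcl1 and Cxcl2, which share GGGAATTTCCC, thus had their highest values in different groups, with the spread between replicates unknown. Cxcl3, which also holds it, is too low for its groups to be ranked.

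The regulators of these genes were read from lists. Of 13 genes of the NF-kB route, 8 were above 0 with IL-10 in each genotype, with medians of 0.13 in wild-type cells and 0.06 in Ptpn1-/- cells, beside the 49.6% and 45.2% of all genes above 0. Bcl3, an atypical inhibitor of NF-kB that IL-10 is known to induce, was the 1 at least 2-fold higher, with log2 ratios of 1.15 and 1.63. Of all genes, 0.465% and 0.877% were 2-fold higher. Nfkbia, which encodes the inhibitor IkB-alpha, had 1410 and 1922.5 units in wild-type cells and 1768 and 2283.5 in Ptpn1-/- cells. Tnfaip3, a deubiquitinase that restrains NF-kB, had log2 ratios of -0.36 and -0.55. Of 9 genes that control decay of chemokine mRNA, 5 were above 0 in wild-type cells and 7 in Ptpn1-/- cells, with medians of 0.07 and 0.10. Among them Zfp36, whose product tristetraprolin speeds decay of AU-rich mRNA, had the largest ratios, 0.58 and 0.72, with 3824 and 5729.5 units in wild-type cells and 4108 and 6761 in Ptpn1-/- cells. Among inflammatory cytokines outside the CXC family, the chemokine gene Ccl4 was at least 2-fold higher in both genotypes. Ccl4 stood at 206.5 and 462 units in wild-type cells and at 285.5 and 800.5 in Ptpn1-/- cells. Il1b stood at 9.5 and 48 units and at 14 and 61, and passed the filter only through the IL-10 groups, so its ratio is not counted.

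Cxcl10 was the chemokine whose ratio differed most between the genotypes. It was listed at 42 units with mock treatment and 38 with IL-10 in wild-type cells, and at 51.5 and 72 in Ptpn1-/- cells. The highest value was thus that of the knockout with IL-10, and the other 3 groups lay closer together. The log2 ratio was -0.09 in wild-type cells and 0.34 in Ptpn1-/- cells, a difference of 0.42. None of the 7 chemokines differed by 2-fold or by 1.5-fold in this respect, where 0.0965% of genes were at least 2-fold upward and 0.0351% downward, and 0.5% and 0.263% at 1.5-fold. The difference of Cxcl10 was 0.21 with a pseudocount of 4 ppm and 0.63 with none, the latter past 1.5-fold. Cxcl1 had the next largest difference, 0.35 (0.20 and 0.46 under those settings), and its values differed mainly between the mock groups. Cxcl16 had 0.10, Cxcl2 -0.04, Cxcl14 -0.07, Cxcl13 -0.16 and Pf4 -0.18. The median of the 7 was -0.04, beside 0.00 for all genes, and 3 of the 7 were above 0, as were 48.7% of all genes.

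Of the interferon route to Cxcl10, 12 genes were read and all 12 were listed. Stat2, a transcription factor of interferon signalling, stood at 716 and 951 units in wild-type cells and 832.5 and 1511 in Ptpn1-/- cells. Irf9, which acts with it on the response element, stood at 738.5 and 863 units and at 983.5 and 1371. Both had their highest value in Ptpn1-/- cells with IL-10, as Cxcl10 did, but unlike Cxcl10 they were also higher with IL-10 in wild-type cells. Irf1 (989 and 1354.5 units, then 1272.5 and 2018.5), Jak2 (1442.5 and 1734.5, then 1360.5 and 1952.5) and Irf7 also had their highest value there. Ifnar1, Ifngr1, Ifngr2, Jak1, Tyk2 and Irf8 did not, and the share of all genes with their highest value there was not counted. Ifnar2, a chain of the interferon receptor, did not either, with 4958 and 5828 units in wild-type cells and 6218 and 6031 in Ptpn1-/- cells. Its difference between the genotypes' IL-10 ratios was -0.28, beside 0.44 for Stat2. Irf7 was set apart by genotype rather than by IL-10, with 625 and 718 units in wild-type cells and 2124 and 2517 in Ptpn1-/- cells. The differences between the genotypes' IL-10 ratios had a median of 0.04 over the 12, with 8 above 0, 4 below and none at 2-fold. All genes had a median of 0.00, with 48.7% above 0, 0.0965% at least 2-fold upward and 0.0351% downward.

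**Figure D2:**
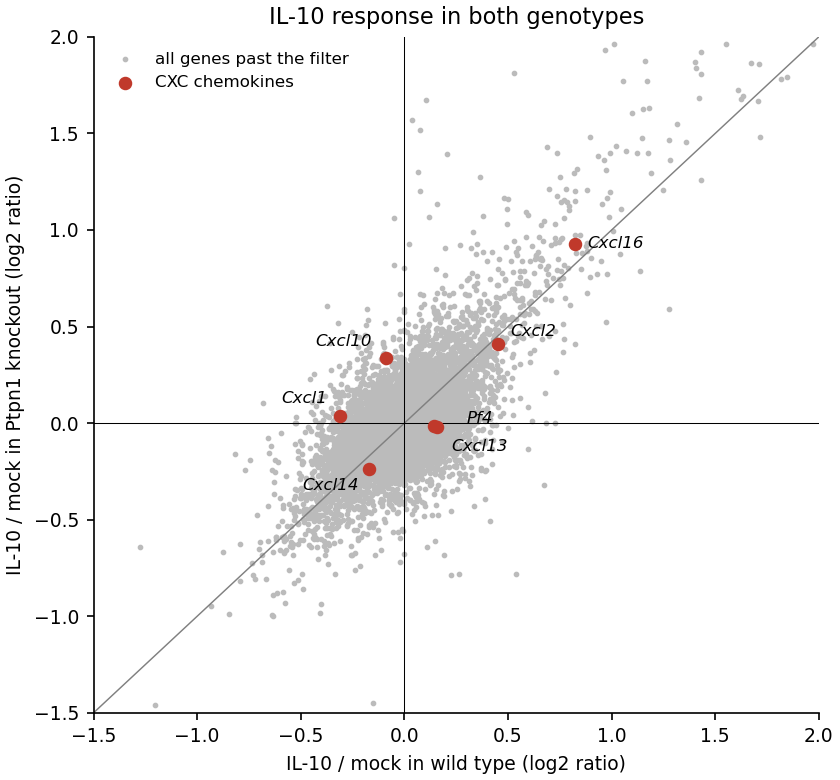
Log2 ratio of IL-10 to mock in wild-type cells (x axis) and knockout (y axis) for the genes past the filter (grey) and the 7 CXC chemokines (red). The diagonal marks equal ratios, and 16 of 11400 genes fall outside the axes. Cxcl16 lies far out near the diagonal (0.82 and 0.93), Cxcl2 is also near it, and Cxcl10 and Cxcl1 lie above it.

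Between genotypes, Cxcl13 showed the largest difference under both treatments, with a higher signal in Ptpn1-/- cells. With IL-10 that order depended on the pseudocount: Cxcl10 had 0.82 and Cxcl13 0.74 at 0.25 ppm, and 0.92 and 0.74 with none. No chemokine was 2-fold higher or lower in Ptpn1-/- cells under mock, where 0.325% of all genes were 2-fold higher and 0.105% lower, or with IL-10, where the shares were 0.596% and 0.0789%. At 1.5-fold, Cxcl13 was the 1 of 7 higher under mock, and Cxcl13 and Cxcl10 were the 2 higher with IL-10. None was 1.5-fold lower, although without a pseudocount Cxcl1 under mock (-0.59) was. The shares of all genes at 1.5-fold were 1.43% higher and 1.4% lower under mock, and 1.8% and 0.991% with IL-10. The median of the 7 was 0.19 under mock and 0.09 with IL-10, beside 0.02 and 0.01 for all genes, and 5 of 7 were above 0 under each treatment, as were 53.5% and 51.8% of all genes.

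Cxcl13 was listed at 944 units in wild-type cells and 1765 in Ptpn1-/- cells under mock, and at 1046.5 and 1749 with IL-10. The knockout groups were nearly level and lay above both wild-type groups. The log2 ratio was 0.88 under mock (1.87 times) and 0.73 with IL-10 (1.67 times), at ranks 58 and 122 from the highest. IL-10 itself went with log2 ratios of 0.14 in wild-type cells and -0.01 in Ptpn1-/- cells. Cxcl13 is made in the peritoneum by resident macrophages among other cells. Of all genes, 53.5% were above 0 in the mock-treated knockout. Of 7 listed markers of resident peritoneal macrophages, 5 were lower there, with a median of -0.53. Gata6, their defining transcription factor, was listed at 700.0 units in wild-type cells and 408 in Ptpn1-/- cells under mock, and Icam2 at 121.5 and 164.5. Of 4 genes taken as markers of monocytes, Ccr2 was listed at 370.5 units in wild-type cells and 581.5 in Ptpn1-/- cells under mock and Chi3l3 at 574 and 1482. The other 2, Ly6c2 and Plac8, lay under 26.7 units in both wild-type groups and passed the filter through the knockout groups. With IL-10, Ccr2 stood at 639 units in wild-type cells and 995 in Ptpn1-/- cells, and Chi3l3 at 728.5 and 1641. Ccr2 thus also differed by treatment, with IL-10 log2 ratios of 0.74 in wild-type cells and 0.75 in Ptpn1-/- cells. Whether Ccr2 and Chi3l3 are specific to monocytes in these cells was not tested. In bulk RNA a different number of cells of a type and a different RNA amount per cell cannot be told apart, and the part of these cells in the Cxcl13 difference was not tested.

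Cxcl10 with IL-10 stood at 38 units in wild-type cells and 72 in Ptpn1-/- cells, a ratio of 1.89 without a pseudocount. Its log2 ratio was 0.61, but 0.30 with a pseudocount of 4 ppm and 0.92 with none, the last chosen after the data were seen. Under mock the log2 ratio was 0.19. Cxcl16 was higher in Ptpn1-/- cells under both treatments, with log2 ratios of 0.35 and 0.45, as its 4 values above show. Pf4 had 1223 and 1366.5 units in wild-type cells, and 1477.5 and 1454 in Ptpn1-/- cells. Its log2 ratio between genotypes was 0.27 under mock and 0.09 with IL-10. On the log2 scale, Pf4 had the narrowest range of the 7 chemokines over the groups, 0.27. Platelet markers stood near the filter. Gp1ba was listed at 24 to 33 units, Clec1b at 22 to 42 and Treml1 at 20.5 to 35, and the summed signal of these 3 listed markers out of 10 was 66.5 to 98 units; their part in the Pf4 signal was not tested. Ppbp and Itga2b, the other defining markers chosen for platelets, were looked up by name and were not among the listed genes.

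Short transcripts tended to have higher ratios in the mock-treated knockout. Across the genes with a known length, Spearman's rho between length and log2 ratio was -0.53 under mock and -0.40 with IL-10, a description across genes of the same columns. For the IL-10 response it was -0.36 in wild-type cells and -0.13 in Ptpn1-/- cells. For the difference between the genotypes' IL-10 ratios it was 0.26. The longest transcripts of the 7 chemokines run from 588 bases (Pf4) to 2699 (Cxcl16), so their values are also given after the median of genes of similar length was subtracted. Cxcl13 then had 0.70 under mock and 0.62 with IL-10, while Cxcl10 in the IL-10 groups came to 0.55, under the 1.5-fold limit. Cxcl16 had 0.28 and 0.40. Pf4 came to 0.08 under mock and -0.04 with IL-10. The median of the 7 between genotypes fell to 0.08 under mock and 0.00 with IL-10, and that of the IL-10 response to 0.06 in wild-type cells and 0.02 in Ptpn1-/- cells. The IL-10 ratios of Cxcl16 moved little, to 0.79 in wild-type cells and 0.94 in Ptpn1-/- cells. The difference between the genotypes' IL-10 ratios came to 0.47 for Cxcl10, 0.39 for Cxcl1, 0.13 for Cxcl16, 0.00 for Cxcl2, -0.02 for Cxcl14, -0.08 for Cxcl13 and -0.13 for Pf4.

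**Figure D3:**
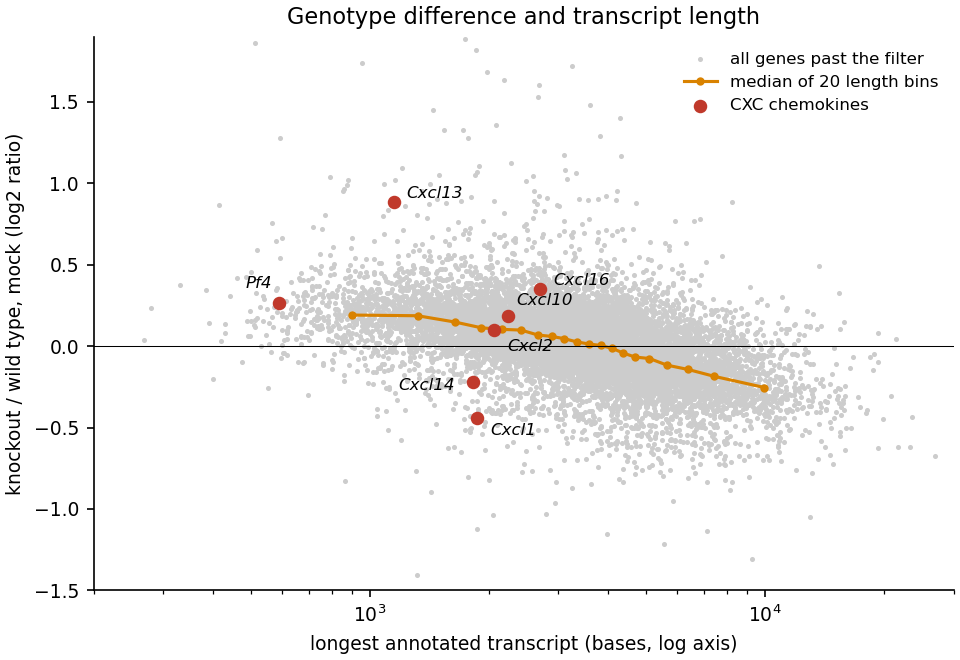
Log2 ratio of knockout to wild type under mock against the longest annotated transcript (log axis, in bases) for the genes with a known length, with 7 of 11222 outside the axes. The line joins medians of 20 bins of length and runs from 0.19 in the shortest to -0.25 in the longest. Cxcl13 lies well above the line, Pf4 close to it, and Cxcl14 and Cxcl1 below it.

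Cxcl1 and Cxcl14 had lower signal in Ptpn1-/- cells. Cxcl14 had 512 and 451.5 units in wild-type cells and 435.5 and 365 in Ptpn1-/- cells. Its 4 values thus ran lower with IL-10 in each genotype and lower in Ptpn1-/- cells under each treatment, with log2 ratios between -0.17 and -0.29. Cxcl1 had a genotype log2 ratio of -0.44 under mock (-0.26 with a pseudocount of 4 ppm), at rank 363 from the lowest, and -0.09 with IL-10. Of the other CXC ligands, Cxcl5, another ligand of Cxcr2 whose row lies 10.8 kb before Pf4, had 169 and 100 units in wild-type cells and 63 and 46 in Ptpn1-/- cells. Its log2 ratio between genotypes was -1.13 under mock and -0.80 with IL-10. Cxcl12, the stromal ligand of Cxcr4, was listed at 654 and 653.5 units and at 584 and 573. The remaining 5 of 7 other ligands were looked up by name and were not among the listed genes.

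Markers of mesothelial cells and fibroblasts ran in the same direction. All 10 markers were listed, and 9 passed the filter. Under mock 9 of 9 were lower in Ptpn1-/- cells, with log2 ratios from -1.21 to -0.01 and a median of -0.62. With IL-10, 8 of 9 were lower and Msln was level, with a median of -0.60. Of all genes, 53.5% were above 0 under mock and 51.8% with IL-10. The summed signal of the 10 markers was 33752.5 and 32367 units in wild-type cells without and with IL-10, and 20369 and 20242 in Ptpn1-/- cells. The defining collagen gene Col3a1 had 4587 and 4922.5 units in wild-type cells and 1962.5 and 2260.5 in Ptpn1-/- cells. Cxcl1, Cxcl14 and Cxcl12 had smaller differences than the median of these markers under both treatments, Cxcl5 had larger ones, and the part of such cells in the lower Cxcl1, Cxcl5 and Cxcl14 was not tested. For the IL-10 response the same markers had medians of 0.00 in wild-type cells and 0.04 in Ptpn1-/- cells.

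**Figure D4:**
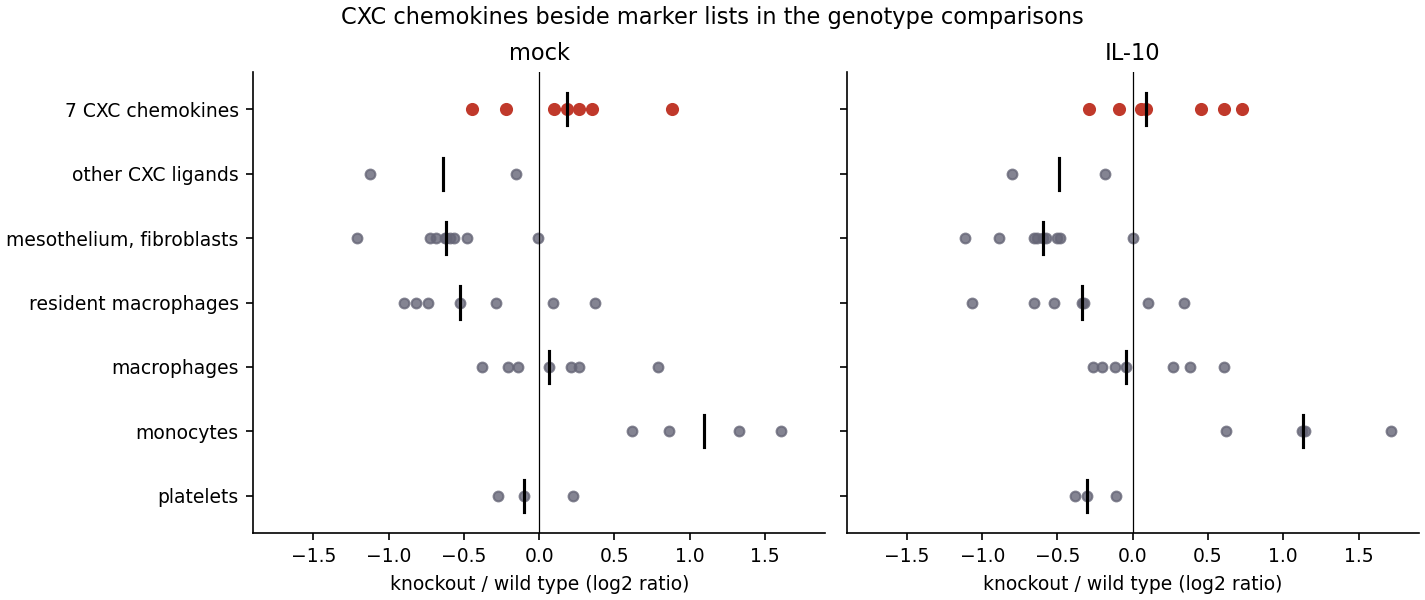
Log2 ratio of knockout to wild type under mock (left) and with IL-10 (right) for the 7 CXC chemokines (red), other CXC ligands and markers of cell types (grey), 1 point per gene past the filter (without Lyz2, which is at the table's highest value in a group) with the list's median as a bar. The chemokines spread to both sides of 0, mesothelial and fibroblast markers lie at or below 0, and monocyte markers lie above 0. Of the monocyte markers, 2 were under 26.7 units in both wild-type groups and passed the filter through the knockout groups. The monocyte bar includes these 2, so it is not read as a result.

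Of the receptors for CXC ligands, 3 passed the filter. Cxcr4, the receptor of Cxcl12, lay far above it, at 3832 and 4391 units in wild-type cells and 5226 and 4784 in Ptpn1-/- cells. Cxcr3, the receptor of Cxcl10, was listed at 41 and 50.5 units and at 69 and 47. Cxcr1 stood at 37 to 55 units and Cxcr2 at 15 to 22.5, the latter under the filter. Of neutrophils, which carry Cxcr2, 3 of 8 markers were listed, S100a8 at 52 to 64 units, S100a9 at 7 to 16.5 and the receptor gene Csf3r at 2078 to 2460. Of B cells, the targets of Cxcl13, 4 of 6 markers were listed, Cd79a at 51 to 58.5 units, Ms4a1 at 14 to 21, Cd79b at 36 to 69.5 and Ighm at 154.5 to 318.5. Ighm, the gene of the IgM heavy chain, was lower in Ptpn1-/- cells, with log2 ratios of -0.65 in the mock groups and -0.79 in the IL-10 groups. The same ratios were 0.32 and -0.29 for Cd79b, and -0.08 and -0.13 for Cd79a. Under mock these markers thus did not share a direction. No receptor past the filter reached 2-fold in any comparison, where at most 0.877% of all genes were 2-fold higher and at most 0.105% lower.

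Of 12 genes for proteins that cut, hold or store CXC chemokines, 11 were listed. Srgn, the core protein of serglycin, to which Pf4 binds in platelet granules, had 4965 and 8597 units in wild-type cells and 7253.5 and 12661 in Ptpn1-/- cells. Its IL-10 log2 ratios were 0.79 and 0.80. Sdc4, a cell surface heparan sulfate proteoglycan, stood at 1065.5 and 1455.5 units and at 1155.5 and 1747. Mmp12, a macrophage protease that can cut CXC chemokines, was listed at the table's highest value, 362618 units, in both mock groups, so its ratios are not read. For the IL-10 response the other 10 had medians of 0.05 in wild-type cells and 0.15 in Ptpn1-/- cells, with 5 and 7 above 0. Of all genes, 49.6% and 45.2% were above 0. None of the 10 was 2-fold apart, beside 0.465% and 0.877% of all genes 2-fold higher and 0.0175% lower in each genotype.

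Each chemokine with a span of at least 0.5 on the log2 scale was set beside the genes of most similar profile, by Euclidean distance between centred log2 values over the 4 groups, among 9424 genes with a mean of at least 5 ppm. For Cxcl16 the nearest was Tmem173, the gene of the DNA-sensing adaptor STING, at a distance of 0.03, with 841 and 1508 units in wild-type cells and 1052 and 2090.5 in Ptpn1-/- cells. Batf, an AP-1 family transcription factor, and the Toll-like receptor adaptor gene Myd88 followed at 0.06 and 0.07. For Cxcl13 the nearest was the C-type lectin receptor gene Clec4a1, at 0.04, with 703 and 760 units in wild-type cells and 1316.5 and 1268 in Ptpn1-/- cells, followed by Lst1 (0.10) and Ass1 (0.12). For Cxcl10 they were Myl12a (0.08), the RNA sensor gene Ddx58 (0.10) and Tctn1 (0.11). Ddx58 stood at 716 and 727.5 units in wild-type cells and at 838.5 and 1128 in Ptpn1-/- cells. For Cxcl2 they were Bcar3 (0.04), Slc31a2 (0.06) and Tbc1d9 (0.06). With only 4 values per gene, this likeness is a description. The log2 values include the pseudocount, which flattens the profiles of the low genes Cxcl10 and Cxcl2 more than those of high genes. For Cxcl10, the log2 ratio between genotypes with IL-10 was 0.61 with the pseudocount and 0.92 with none. The genes nearest to Cxcl10 and Cxcl2, and their small distances, thus may depend on the pseudocount, and distances without it were not computed.

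**Figure D5:**
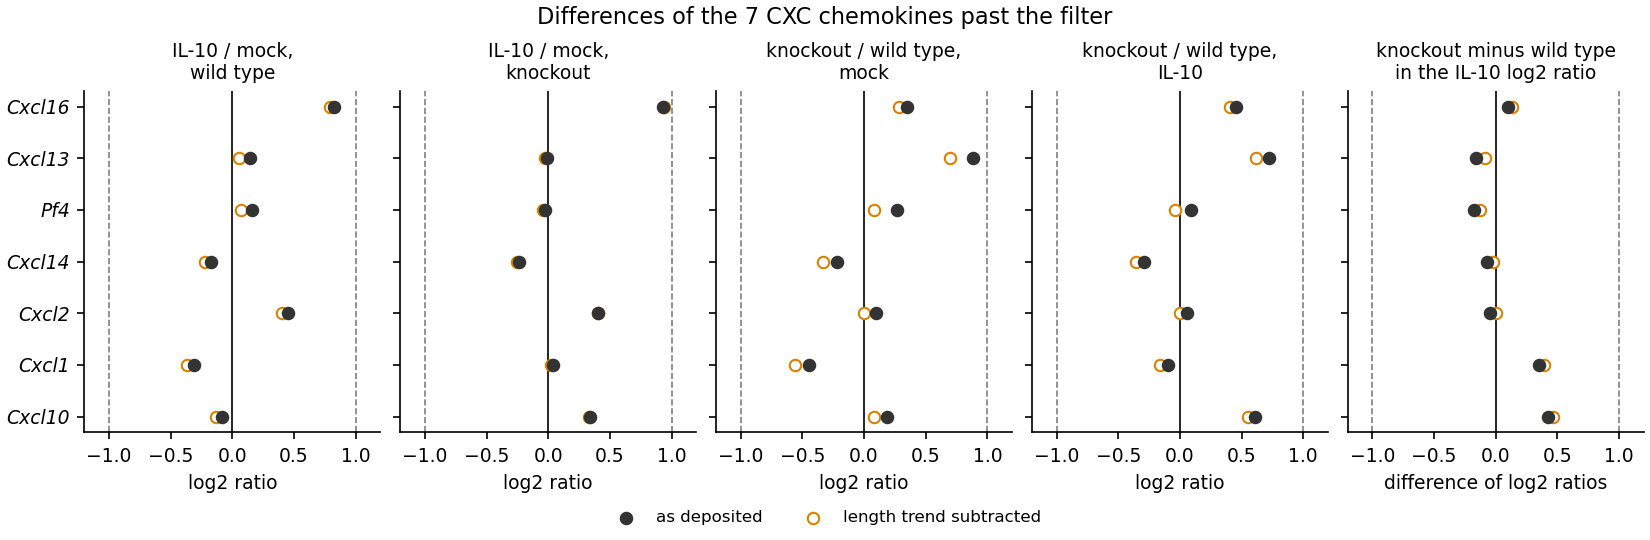
Log2 ratios of the 7 CXC chemokines past the filter in the 4 comparisons, with the IL-10 ratio of the knockout minus that of wild type (right), as deposited (filled) and after the length trend was subtracted (open). Dashed lines mark 2-fold, which no chemokine reached. Cxcl16 stands out in both IL-10 panels and Cxcl13 in both genotype panels.

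The comparisons share columns: mock-treated wild type, for example, enters both the IL-10 ratio of wild type and the mock ratio between genotypes. A high or low value in 1 column therefore moves more than 1 comparison. For Cxcl1, the mock wild-type value of 101.5 units enters both of its lowest ratios.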

How the data were processed

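Gene expression in 8 samples was measured by RNA sequencing, and the authors deposited 1 normalized expression signal per gene and group. Per the submitters' processing notes, RSEM, Bowtie and the mm9 build were used, with no version stated. How the signal was normalized or filtered is not given in the sources used here. This deposited signal sums to 26705598 units in each of the 4 columns, and all values are multiples of 0.5, so depth differences between libraries were removed before deposit. Depth per sample is unknown, and no interval or floor is given.

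The planned fit across samples, the replicate block and the fits leaving out a sample need values per sample and were not run. Log2 ratios used a pseudocount of 26.7 units (1 ppm of a column's sum), a filter of 1 ppm on the mean and a limit of 2-fold. A listed gene at the table's highest value in any group (Lyz2, Mmp12) entered no ratio of a list. Lengths came from GENCODE M21 (GRCm38) by gene identifier and were found for 98.4% of the 11400 genes; the trend is the median in 20 bins of length. The calculation was tested on simulated data without noise, with planted changes larger than any difference of the chemokines. This checks the code only and says nothing on differences under 2-fold or on the spread between replicates. Python 3.11.15, pandas 2.3.3, numpy 2.4.6, scipy 1.17.1 and matplotlib 3.10.9 were used.

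The members, gene lists and marker lists were chosen with earlier results of these data known. Genes named are the 8 chemokines, a set of regulators and receptors, up to 3 genes per list with the largest differences, nearest profiles (3 each) and neighbours within 300 kb. Of the genes first chosen for the set and the lists, 2 are not reported here. Single markers of cell types, Adam17, Irf1, Irf9, the choice of neighbours and the motif forms were chosen after values were seen. Alternatives were other pseudocounts, filters, centring, the length trend and a limit of 1.5-fold.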

Additional observations from a re-analysis of the deposited data

How the results depend on the processing

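The count of chemokines at least 2-fold apart was 0 of 7 in each of the 5 comparisons, and stayed 0 with pseudocounts of 0.25 ppm, 4 ppm or none (the last added after the data were seen), without a filter, with a filter at 5 ppm, with the median of all genes subtracted and with the length trend subtracted. With a limit of 1.5-fold it was 1 for the IL-10 response in wild-type cells, 1 for that in Ptpn1-/- cells, 1 for knockout against wild type under mock and 2 with IL-10. The filter at 5 ppm left 20 of the 35 single values, since Cxcl1, Cxcl2 and Cxcl10 lie under it. Small ratios changed sign in 4 cases. With the median subtracted the IL-10 ratio of Cxcl13 in Ptpn1-/- cells was 0.0021. With the length trend subtracted Pf4 in Ptpn1-/- cells with IL-10 was -0.04, Cxcl2 in the mock comparison was -0.0029 and its difference between genotypes was 0.00038. No paired analysis was possible because the table has 1 column per group and none per sample, and for the same reason no sample could be left out. The ratios of the low genes Cxcl1, Cxcl2 and Cxcl10 depended on the pseudocount. At 4 ppm the IL-10 ratios of Cxcl2 were 0.29 in wild-type cells and 0.26 in Ptpn1-/- cells, that of Cxcl1 in wild-type cells was -0.18 and its mock ratio between genotypes -0.26, and Cxcl10 had 0.18 for IL-10 in Ptpn1-/- cells and 0.30 between genotypes with IL-10. For Cxcl10 the difference between the genotypes' responses was 0.56 with 0.25 ppm, 0.21 with 4 ppm and 0.63 with none, and that of Cxcl1 was 0.43, 0.20 and 0.46.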

Other observations

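The run GGGAATTTCCC that Cxcl1, Cxcl2 and Cxcl3 share before their starts was also looked up in the rest of the RefSeq windows, a step chosen after the data were seen. Of the 14 genes with a match, 6 are in the deposited table, and besides the chemokines these are Hpn, Il16 and Zfp84. Il16, which encodes a cytokine precursor, was listed in wild-type cells at 337.5 units without IL-10 and 275 with it, and in Ptpn1-/- cells at 318 and 218. Hpn, the gene of the protease hepsin, had 75 and 77 units in wild-type cells but 71 and 105.5 in Ptpn1-/- cells. Zfp84 moved little, with 393.5 to 429.5 units in the 4 groups. The genes with this run thus had IL-10 ratios on both sides of 0.

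Near Cxcl10, within 300 kb, Naaa, which encodes a lysosomal amidase, had 1633 and 2172.5 units in wild-type cells and 2096.5 and 2752.5 in Ptpn1-/- cells. G3bp2 and Uso1 in the same stretch stood at 3445.5 to 3604 and 2662.5 to 2893 units. Near Cxcl16, the lectin gene Clec10a stood at 209 and 280 units in wild-type cells and at 346 and 512.5 in Ptpn1-/- cells.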
